A study of Mus musculus with 6 samples.

Results

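The 10 claudin genes Cldn1, Cldn2, Cldn3, Cldn4, Cldn6, Cldn7, Cldn8, Cldn9, Cldn10 and Cldn11 are described here in whole mouse kidneys at E13.5. Their members were all probe sets, the groups of short oligonucleotides that read 1 transcript on an Affymetrix MOE430.2 array, that the platform annotation gives to 1 of these genes alone. That rule found 18 of the 45101 probe sets on the array. Kidneys were Fz4-/-, lacking the Wnt and Norrin receptor encoded by Fzd4, or Fz4+/+, with 3 samples of each, all at E13.5 and untreated. The 3 litters contributed a Fz4-/- and a Fz4+/+ sample each. The labels call them biological replicates and do not say how many embryos a sample held, nor how the allele was made or on which strain, so p-values measure the spread between these samples.

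Claudins are the membrane proteins that form the strands of tight junctions, the seal between neighbouring epithelial cells. Some close the path between cells, and others line pores that let chosen ions through, so that the claudins a tubule segment carries set what can cross it. In the kidney at this stage the ureteric bud is a branching epithelial tube, and the first nephrons turn from mesenchyme into epithelium and build junctions as they do so.

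A value here is a log2 expression value made by the authors with RMA, so a difference of 1 is a doubling, and differences run Fz4-/- minus Fz4+/+. Probe sets with a mean over all arrays at or above 5.89 log2 (the 40th percentile) were tested, 27022 in all. Of the claudin probe sets 12 passed this filter, and 8 of the 10 genes had at least 1 that did. Cldn2 and Cldn4 did not. Where a gene is given once, its brightest probe set stands for it. Levels of different probe sets are not set against each other, because each has its own affinity.

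The median log2 value of the arrays lay between 6.62 and 6.74. Fzd4 read 3.58 to 6.22 in the Fz4-/- samples, against 10.31 to 11.21 in the Fz4+/+ samples, on its brightest probe set. All 8 markers of the ureteric tip and all 9 nephron progenitor markers on the array passed the filter, whereas Aqp2, Upk1b, Upk3a, Elf3 and Hoxb7 of the 20 ureteric epithelium markers did not. On the first principal component of the arrays, with 70.8% of the variance, the Fz4+/+ sample of litter 3 lay furthest out at 70.1, against -48.9 to 48.7 for the others. Its array weight, limma's estimate of how closely an array follows the fit, was the lowest of the 6, at 0.22. The Fz4+/+ sample of litter 2 stood apart on the second component, with 10.4% of the variance, at -32.71 against -10.55 to 20.08 for the others. For actin, that sample's 3' control probe set exceeded the 5' one by 0.90 log2, a gap that widens as RNA degrades. The actin gap ran from 0.64 to 0.86 over Fz4-/- and from 0.76 to 0.90 over Fz4+/+ samples. For Gapdh the gap was 0.895 in that sample and 0.897 in the Fz4+/+ sample of litter 3. Over Fz4-/- samples the Gapdh gap ran from 0.75 to 0.86.

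Whether the claudins differ between kidneys without and with Fzd4 was asked first. Cldn1 was higher in Fz4-/- kidneys by 0.77 log2 with no overlap between the genotypes, but it did not pass the test over all probe sets, and neither did any other claudin. limma called 0 of the 27022 probe sets, 0% at an adjusted p under 0.05. Fzd4 itself was not called, with a difference of -6.16 on its brightest probe set and limma's adjusted p of 0.999988. Of all tested probe sets 239, 0.884%, had an unadjusted p under 0.05, or 1725 with the Fz4+/+ sample of litter 3 left out. The 239 lay below the 1351.1 expected at that threshold without any change. The 0 calls therefore do not show that the claudins were unchanged. Of the 12 tested claudin probe sets 1, that of Cldn1, was among the 239. With the litter as a block 3.11% of all probe sets had such a p, and of the claudins again 1, that of Cldn1. Of the 8 tested claudin genes 5 lay above 0, and of all 10 genes 6 lay above 0 and 4 below, at a median of 0.06. Among the 12535 tested genes 63.5% lay above 0, at a median of 0.03. With the Fz4+/+ sample of litter 2 left out the claudins had 7 above 0 and a median of 0.06, against 48.2% and -0.0040 over all tested genes. Leaving out the Fz4-/- sample of litter 2 gave a median of -0.01, with 5 above 0, and leaving out that of litter 1 gave 0.19. With the Fz4+/+ sample of litter 3 or 1 left out it was 0.12 or 0.11.

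**Figure D1:**
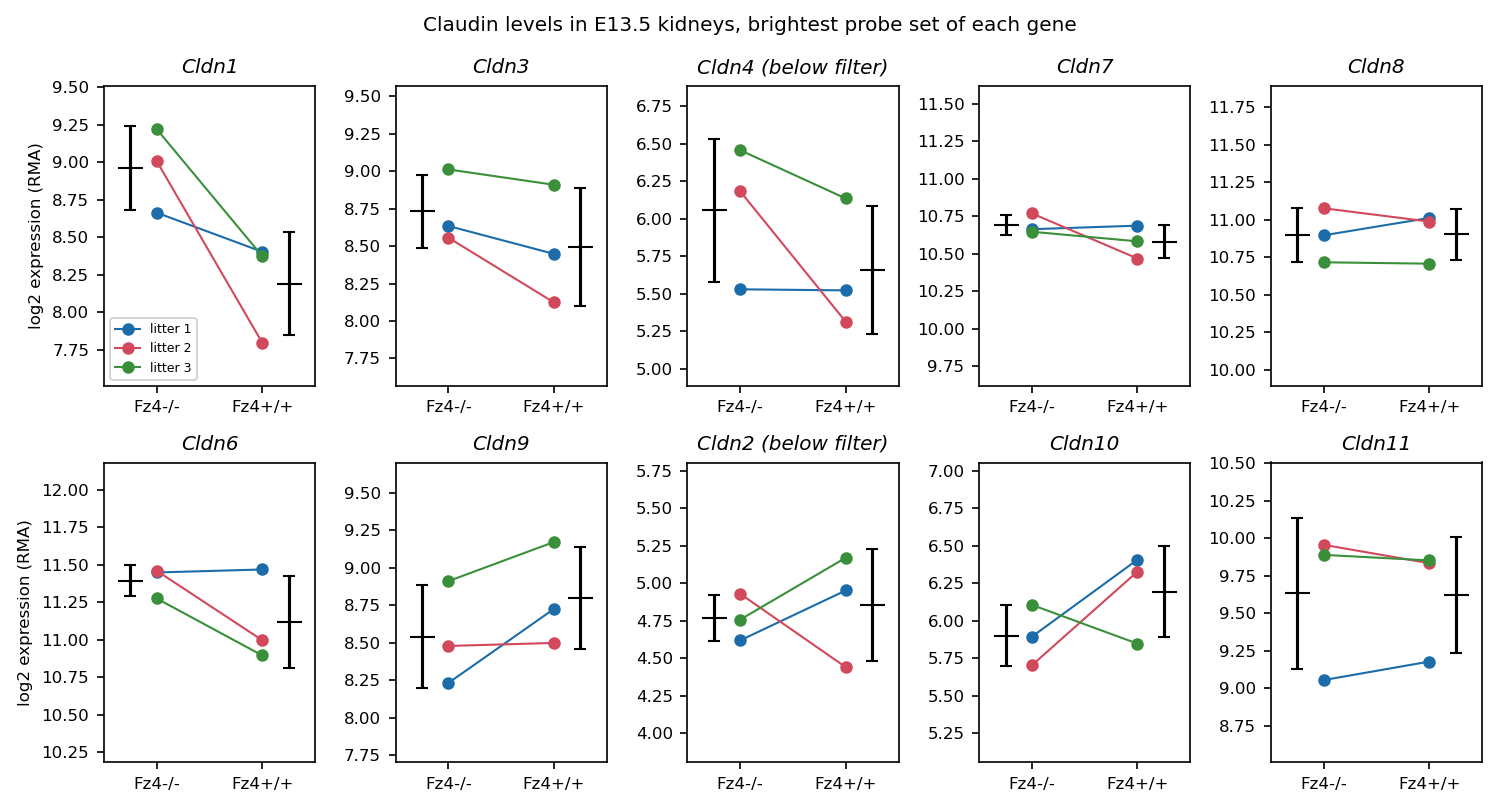
Log2 expression (RMA) of the brightest probe set of each claudin, with Fz4-/- on the left and Fz4+/+ on the right of each panel. Points are single samples joined within a litter, black bars are the mean ± SD of 3, each panel spans 2 log2 units, and Cldn1 is the panel whose genotypes do not overlap.

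Cldn1 encodes a barrier-forming claudin of many epithelia, which the adult kidney carries in the parietal cells of Bowman's capsule. Its brightest probe set (1437932_a_at) read 8.66, 9.01 and 9.22 in the Fz4-/- samples of litters 1 to 3, against 8.40, 7.80 and 8.37 in the Fz4+/+ samples. The genotypes did not overlap, and the lowest value was that of the Fz4+/+ sample of litter 2. Means were 8.96 ± 0.28 in Fz4-/- and 8.19 ± 0.34 in Fz4+/+ kidneys (SD, n = 3 each). The difference of 0.77 ± 0.23 (SE, 95% interval 0.22 to 1.32), a ratio of 1.71, had limma's unadjusted p of 0.0138 and an adjusted p of 0.999988. Among all tested genes 2.56% were higher in Fz4-/- without overlap. The exact permutation p was 0.1, the smallest that 3 against 3 can give. Within litters the difference was 0.26, 1.21 and 0.85, so litter 1 had the smallest. With the litter as a block the unadjusted p was 0.0171 and limma's adjusted p 0.999986. Over 16 alternatives the adjusted p for Cldn1 lay between 0.147, with array weights, and 0.999998. Leaving out the Fz4+/+ sample of litter 2 gave a difference of 0.58, and leaving out both samples of litter 2 or of litter 1 gave 0.55 or 1.03. The mean of the 4 probe sets of Cldn1 differed by 0.30.

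The 3 other probe sets of Cldn1 were below the filter. The second (1450014_at) read 4.96, 5.67 and 5.27 in Fz4-/- samples, against 4.98, 4.92 and 4.63 in Fz4+/+ samples. It was higher in Fz4-/- in litters 2 and 3, by 0.75 and 0.64, and read -0.03 in litter 1, so its genotypes overlapped. The remaining 2 lay between 2.35 and 2.80 in every sample, with differences of -0.03 and -0.01, near the lowest value on the arrays, 2.22.

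**Figure D2:**
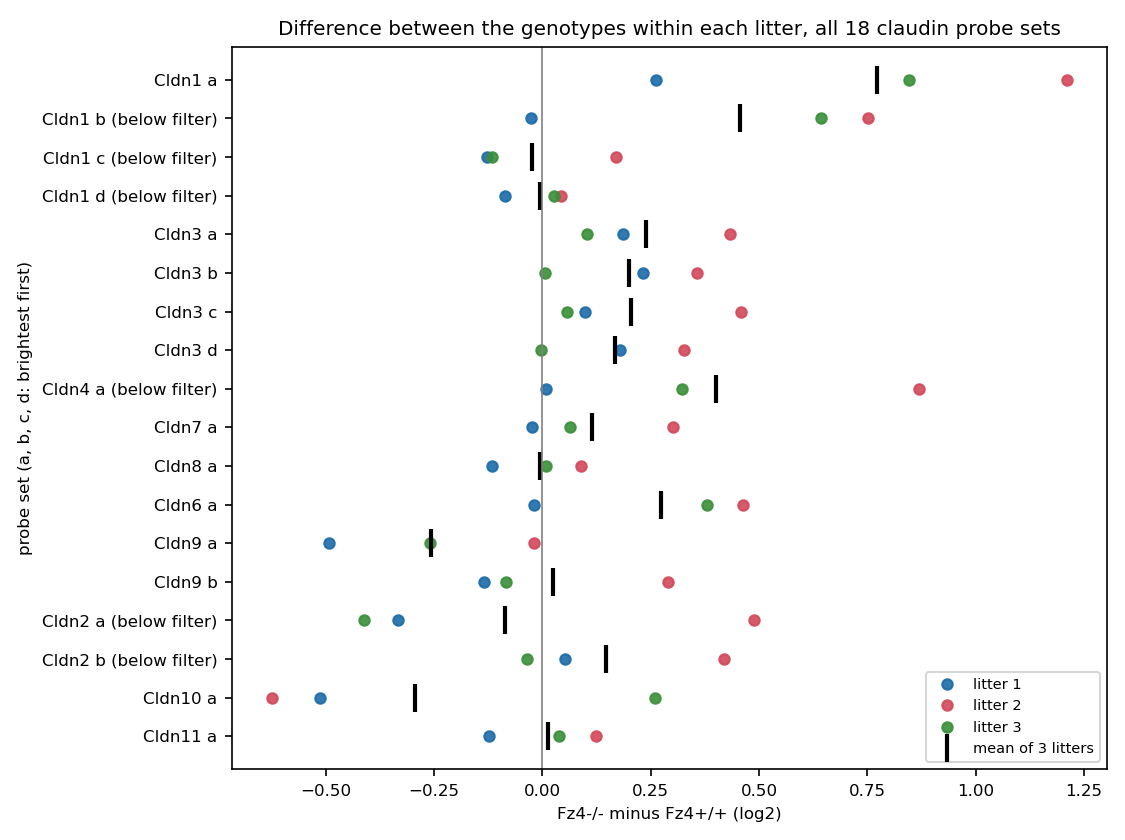
Difference between the genotypes (Fz4-/- minus Fz4+/+, log2) within each litter for all 18 claudin probe sets, lettered from the brightest of each gene. Coloured points are litters and black ticks their means. The brightest probe set of Cldn1 runs from 0.26 to 1.21, and those of Cldn7, Cldn8 and Cldn11 lie on both sides of 0.

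The promoter of Cldn1 is shown because this gene had the largest difference among the claudins, and those of Cldn3 and Cldn4 because these 2 genes lie side by side on chromosome 5. Sequences are the 250 bases before the annotated start in RefSeq, build GRCm38.p6, read along the gene's strand, and 8 of the 10 genes matched with 10 starts. Cldn8 and Cldn9 had no entry. Capitals mark a match on either strand to 1 of 8 motifs, whose letters are given after the sequences. The windows are chr16:26371840-26372089 on the minus strand for Cldn1, chr5:134985964-134986213 on the plus strand for Cldn3 and chr5:134946935-134947184 on the minus strand for Cldn4.
Cldn1: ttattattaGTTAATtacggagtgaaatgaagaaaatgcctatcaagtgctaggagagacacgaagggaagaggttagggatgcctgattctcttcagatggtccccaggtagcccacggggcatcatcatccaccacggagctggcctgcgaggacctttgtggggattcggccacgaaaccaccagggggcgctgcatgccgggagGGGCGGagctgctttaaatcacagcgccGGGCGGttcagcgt
Cldn3: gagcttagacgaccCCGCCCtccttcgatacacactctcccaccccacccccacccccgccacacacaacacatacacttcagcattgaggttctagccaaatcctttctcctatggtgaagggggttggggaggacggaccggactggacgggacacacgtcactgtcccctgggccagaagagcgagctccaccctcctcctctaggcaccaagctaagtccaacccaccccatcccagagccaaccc
Cldn4: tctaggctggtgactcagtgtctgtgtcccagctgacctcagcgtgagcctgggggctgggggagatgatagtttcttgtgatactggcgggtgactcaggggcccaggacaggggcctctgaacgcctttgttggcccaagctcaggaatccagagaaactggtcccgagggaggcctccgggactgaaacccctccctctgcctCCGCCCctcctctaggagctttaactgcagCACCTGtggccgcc
The Cldn1 window holds GC boxes that start at -42 and -14, counted from the start, and an HNF1 core at -241. The Cldn3 window holds a GC box at -236, and that of Cldn4 a GC box at -44 and a Snail-type E-box at -14. No matches overlapped in these windows. The GC box (GGGCGG) was in 6 of the 10 claudin windows and in 32.7% of 32851 promoter windows of the same length. The E-box bound by Snail proteins (CAGGTG) was in 3 claudin windows and in 17.2% of all. The HNF1 core (GTTAAT) was in 2 claudin windows and in 6.43% of all. The TATA box (TATAAA), the first of the motifs met in 1 claudin window, was in 12.4% of all. The Grainyhead core (AACCGG) was likewise in 1 claudin window and in 5.62% of all. A GATA site (AGATAA) was also in 1 and in 9.99% of all. The TCF/LEF site (CTTTGAT) was in 0 claudin windows and in 3.21% of all. The AP-2 site (GCCNNNGGC) was in 0 as well and in 13.7% of all. A match is a description of letters and shows no binding.

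Cldn3 and Cldn4 are barrier claudins of simple epithelia, and Cldn4 also takes part in the chloride path of the collecting duct. The brightest of the 4 Cldn3 probe sets (1460569_x_at) read 8.63, 8.56 and 9.01 in the Fz4-/- samples of litters 1 to 3, against 8.45, 8.12 and 8.91 in the Fz4+/+ samples. Both samples of litter 3 were the highest of their genotype, and the genotypes overlapped. The difference was 0.24 ± 0.23 (SE, 95% interval -0.33 to 0.81), with limma's adjusted p of 0.999988 and an exact permutation p of 0.4. Within litters it was 0.19, 0.43 and 0.10. The other 3 probe sets gave 0.20, 0.20 and 0.17, so the 4 readings of this gene lay close together. The suffix _x_at marks probes that can also match other transcripts, and 2 of the 4 carry it. Leaving out the Fz4+/+ sample of litter 2 gave 0.06, and leaving out that of litter 3 gave 0.45.

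Cldn4 (1418283_at), with a mean of 5.86 just under the filter, read 5.53, 6.18 and 6.46 in Fz4-/- samples, against 5.52, 5.31 and 6.13 in Fz4+/+ samples. The genotypes overlapped, with both samples of litter 1 nearly equal. With all probe sets tested, the difference was 0.40 ± 0.31 (SE), with limma's unadjusted p of 0.249. Within litters it was 0.01, 0.87 and 0.32. Leaving out the Fz4-/- sample of litter 3 gave 0.20, and leaving out that of litter 1 gave 0.66. With the Fz4+/+ sample of litter 2 or 3 left out it was 0.23 or 0.64. Cldn10, with a mean of 6.05, was the claudin just above the filter. Cldn1, Cldn3 and Cldn4 were the 3 claudins whose brightest probe set was higher in Fz4-/- in every litter, as were 15.5% of all tested genes.

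Cldn7 and Cldn8 encode claudins of the distal nephron and collecting duct, and Cldn8 recruits Cldn4 to the junction there. Cldn7 (1448393_at) read 10.66, 10.77 and 10.65 in Fz4-/- samples, against 10.69, 10.47 and 10.58 in Fz4+/+ samples. All 6 values lay within 0.30 log2, the narrowest range among the brightest probe sets. The difference was 0.11 ± 0.11 (SE, 95% interval -0.15 to 0.38), or 0.06 when the Fz4+/+ sample of litter 2 was left out. Cldn8 (1449091_at) read 10.90, 11.08 and 10.72 in Fz4-/- samples, against 11.01, 10.99 and 10.71 in Fz4+/+ samples. Its genotypes had nearly the same mean, 10.897 and 10.903, with a difference of -0.01 ± 0.15 (SE, 95% interval -0.36 to 0.35).

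Cldn6 and Cldn9 lie side by side on chromosome 17 and are known from embryonic and neonatal epithelia, where they are used more than in the adult. Cldn6 (1417845_at) read 11.45, 11.46 and 11.27 in Fz4-/- samples, against 11.47, 10.997 and 10.90 in Fz4+/+ samples. The Fz4+/+ sample of litter 1 was the highest of all, so the genotypes overlapped. The difference was 0.27 ± 0.18 (SE, 95% interval -0.15 to 0.70), with limma's adjusted p of 0.999988. Within litters it was -0.02, 0.46 and 0.38. Leaving out the Fz4+/+ sample of litter 1 gave 0.45, and leaving out that of litter 3 gave 0.16.

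Cldn9 was the 1 claudin whose brightest probe set (1439427_at) was lower in Fz4-/- in every litter, as were 7.26% of all tested genes. It read 8.23, 8.48 and 8.91 in Fz4-/- samples, against 8.73, 8.50 and 9.17 in Fz4+/+ samples. In litter 2 the samples were almost equal, at -0.02, against -0.49 and -0.26 in litters 1 and 3. The difference was -0.26 ± 0.24 (SE, 95% interval -0.85 to 0.34), with limma's adjusted p of 0.999988, and with the Fz4+/+ sample of litter 3 or 2 left out it was -0.07 or -0.41. The second probe set of Cldn9 (1450524_at) read 0.02 ± 0.18 (SE) and went the other way in litter 2, at 0.29, so the 2 probe sets disagreed.

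Cldn2 and Cldn10 encode pore-forming claudins. Cldn2 makes the cation and water pore of the proximal tubule, and Cldn10 has variants that pass cations or anions. Both probe sets of Cldn2 were below the filter, at 4.62, 4.93 and 4.76 in Fz4-/- samples, against 4.95, 4.44 and 5.17 in Fz4+/+ samples, on the first (1417231_at). It differed by -0.09 and the second (1417232_at) by 0.15, with opposite signs between litters 2 and 3 on each. Cldn10 (1426147_s_at) read 5.89, 5.70 and 6.11 in Fz4-/- samples, against 6.41, 6.33 and 5.85 in Fz4+/+ samples. It was lower in Fz4-/- in litters 1 and 2, by -0.51 and -0.62, and higher in litter 3, by 0.26. The difference was -0.29 ± 0.19 (SE, 95% interval -0.76 to 0.18), with limma's adjusted p of 0.999988. Leaving out the Fz4+/+ sample of litter 3 gave -0.47, and leaving out that of litter 1 gave -0.19. RefSeq gives Cldn10 2 starts, and which variant the probe set reads was not analysed here.

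Cldn11 makes the strands of myelin and of the Sertoli cell barrier. Its probe set (1416003_at) read 9.05, 9.96 and 9.89 in Fz4-/- samples, against 9.18, 9.83 and 9.85 in Fz4+/+ samples. Both samples of litter 1 lay well below the other 4, and the genotypes had a difference of 0.01 ± 0.31 (SE, 95% interval -0.74 to 0.77). With the litter as a block the SE was 0.10. The nerve list, which holds markers of myelinating glia, averaged 6.61, 6.21 and 6.96 over its 5 tested genes in Fz4-/- samples, against 6.56, 7.31 and 7.84 in Fz4+/+ samples. Of the gonad list 2 of 6 genes passed the filter. These were Star and Sox9, a Sertoli cell marker that is also on the ureteric tip list. Amh and Dhh, likewise markers of Sertoli cells, did not pass.

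Several claudins varied more between litters than between genotypes, with Cldn1 among the exceptions. The litter means of Cldn11, each over both genotypes, were 9.12, 9.90 and 9.87 in litters 1 to 3, a range of 0.78. Those of Cldn4 were 5.53, 5.75 and 6.30, a range of 0.77, and those of Cldn3 were 8.54, 8.34 and 8.96, a range of 0.62. Cldn9 read 8.48, 8.49 and 9.04. In Cldn3, Cldn4 and Cldn9 litter 3 was thus the highest, whereas it was the lowest in Cldn6 (11.46, 11.23 and 11.09) and in Cldn8 (10.95, 11.03 and 10.71). These ranges were at least 0.5 in 4 of 10 claudins, 3 of them tested, and in 24% of all tested genes. The median range was 0.38 over the claudins and 0.30 over all tested genes, while the median absolute difference between genotypes was 0.25 over the claudins and 0.08 over all tested genes. A range over 3 litter means of 2 samples each is not the same measure as a difference of 2 genotype means, and no test between litters was made.

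**Figure D3:**
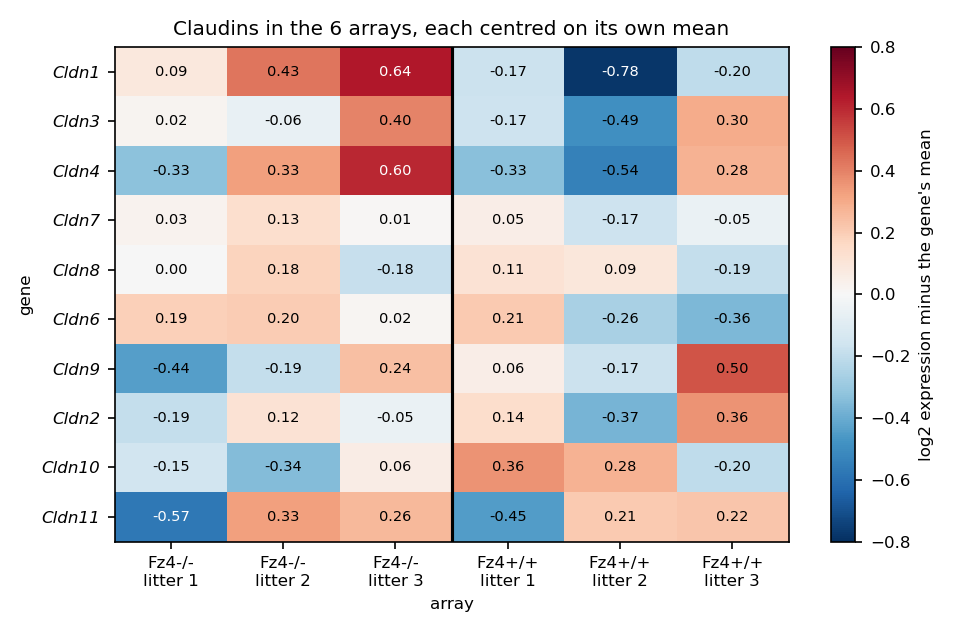
Log2 expression of each claudin (brightest probe set) in the 6 arrays, minus the gene's own mean over them, with Fz4-/- arrays left of the line and Fz4+/+ arrays right of it. Cldn1 is above its mean in the 3 Fz4-/- arrays and below it in the 3 Fz4+/+ arrays, and Cldn11 is low in both arrays of litter 1.

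Because whole kidneys were measured, more epithelial cells and more claudin RNA per cell cannot be told apart. The mean of the ureteric epithelium markers was higher in Fz4-/- in each litter, as were Cldn1, Cldn3 and Cldn4. Of the 15 tested markers 13 lay above 0, against 63.5% of all tested genes, with a median of 0.20. When the Fz4+/+ sample of litter 2 was left out 11 of these markers did, at a median of 0.11, against 48.2% of all tested genes. Their mean was 9.03, 9.16 and 9.16 in Fz4-/- samples, against 8.91, 8.66 and 9.07 in Fz4+/+ samples, so that it differed by 0.12, 0.51 and 0.09 in litters 1 to 3. The difference of this mean was 0.24 over all samples, 0.13 with the Fz4+/+ sample of litter 2 left out and 0.33 with that of litter 3 left out. Perp, a desmosome-associated protein, read 0.73, the epithelial sodium channel subunit Scnn1b 0.39, E-cadherin (Cdh1) 0.24 and the keratin Krt7 0.50, with limma's adjusted p of 0.999988 for each, and Krt7 read 0.21 once the Fz4+/+ sample of litter 2 was left out. Early nephron markers differed by 0.07, 0.56 and 0.04 within litters, with 9 of 11 above 0 at a median of 0.11. Podocyte markers differed by 0.12, 0.66 and 0.06, with 4 of 4 above 0. The 8 ureteric tip markers went the other way, by -0.16, -0.29 and -0.24, with 1 above 0. Muscle markers, with 0 of 7 above 0, differed by -0.28, -1.31 and -0.10. With the Fz4+/+ sample of litter 2 left out, the early nephron mean differed by 0.07 in place of 0.22, with 7 of 11 above 0. The podocyte mean then differed by 0.17 in place of 0.28. The muscle mean differed by -0.37 in place of -0.56, with 1 of 7 above 0. Of all tested genes 48.2% lay above 0 in this setting. The part of the other lists in the claudin values was not tested.

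Taken relative to the ureteric epithelium mean of the same array, a step chosen after the data were seen, Cldn1 still had no overlap between the genotypes. It stood at -0.36, -0.16 and 0.06 in Fz4-/- samples, against -0.51, -0.86 and -0.70 in Fz4+/+ samples, a difference of 0.53, with 0.14, 0.70 and 0.75 within litters. On this scale 0.12% of all tested genes were higher in Fz4-/- without overlap, against 2.56% before the subtraction. The subtracted mean was itself higher in Fz4-/- by 0.24, which lowers the difference of every gene by construction. The 0.12% is thus no measure of how rare the Cldn1 difference is. Relative to Cdh1 and Epcam alone, both adhesion molecules of epithelial cells, the difference was 0.58 and the genotypes overlapped. Cldn3 read 0.07, -0.08 and 0.01 within litters on the first scale, and Cldn6 read -0.14, -0.05 and 0.29. Cldn9 stood at -0.79, -0.68 and -0.25 in Fz4-/- samples, against -0.18, -0.16 and 0.10 in Fz4+/+ samples, lower in each litter by -0.61, -0.53 and -0.35. The genotypes did not overlap for Cldn9, nor for Cldn2, which was below the filter and was lower by -0.45, -0.02 and -0.51 within litters. Of all tested genes 21.4% were lower without overlap on this scale. Relative to Cdh1 and Epcam alone the genotypes overlapped for both. The differences there were -0.45 for Cldn9 and -0.28 for Cldn2, and Cldn2 read 0.06 in litter 2. Relative to the ureteric epithelium mean, Cldn7, Cldn8 and Cldn11 read -0.13, -0.25 and -0.23, and each was lower in every litter. Before the subtraction each had litters on both sides of 0, and the subtracted mean was higher in Fz4-/- in every litter. The share of all tested genes lower in every litter on this scale was not counted.

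**Figure D4:**
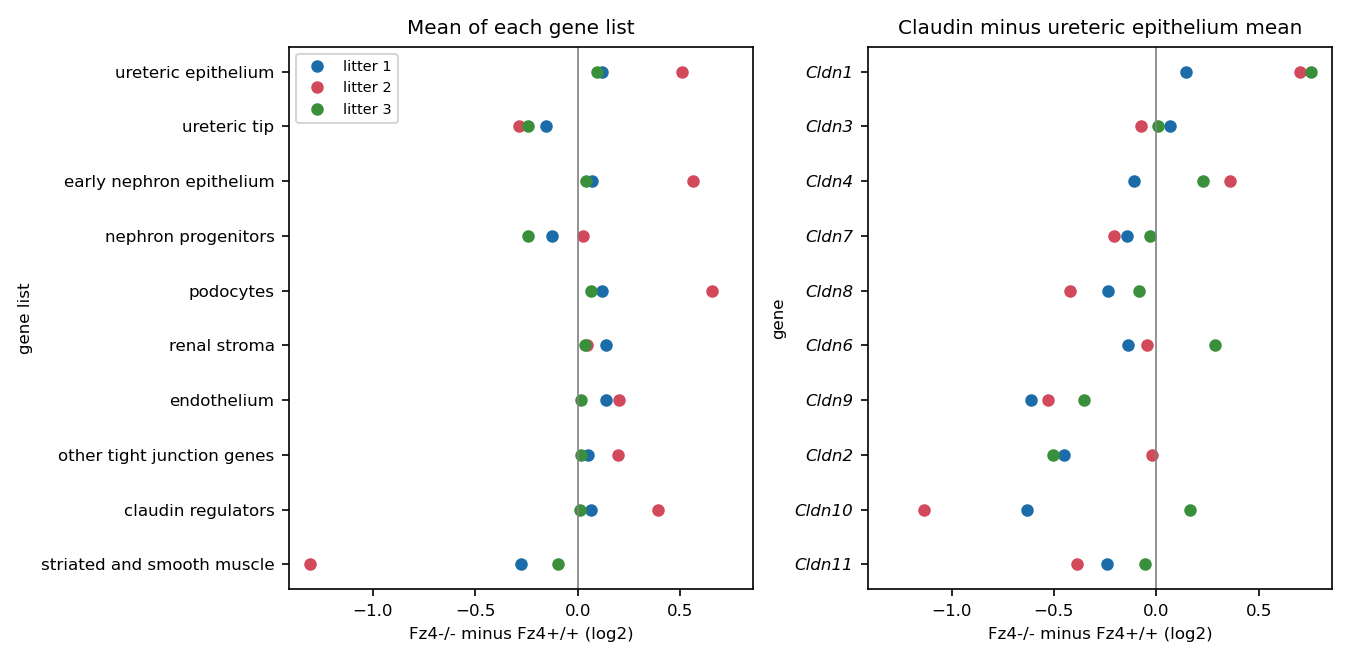
Left, the difference in the mean of each gene list within each litter (Fz4-/- minus Fz4+/+, log2), and right, the same for each claudin after the ureteric epithelium mean of its array was subtracted. Litter 2 stands out in the ureteric epithelium, early nephron, podocyte and muscle lists, and Cldn1 stays above 0 in the 3 litters on the right.

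Other genes of the tight junction were counted from a list of partners of the claudins. Of 31 on the array 29 were tested, and limma called 0 of them in either direction, with 0 at an unadjusted p under 0.05. Above 0 were 22, against 63.5% of all tested genes, with a median of 0.06. With the Fz4+/+ sample of litter 2 left out 19 were, at a median of 0.03, against 48.2% and -0.0040 over all tested genes. Higher in Fz4-/- in every litter were 8, against 15.5% of all tested genes, and 1 was lower in every litter, against 7.26%. The scaffold gene Tjp3 read 7.53, 7.74 and 7.89 in Fz4-/- samples, against 6.98, 7.12 and 7.81 in Fz4+/+ samples. It differed by 0.42 ± 0.24 (SE), and by 0.55, 0.62 and 0.08 within litters. Cgn, which encodes the junction adaptor cingulin, read 8.15, 8.28 and 8.64 in Fz4-/- samples, against 7.95, 7.76 and 8.38 in Fz4+/+ samples, and differed by 0.32 ± 0.21 (SE). With the litter as a block their unadjusted p was 0.0397 and 0.0371 and limma's adjusted p 0.999986 for both. The polarity gene Crb3 differed by 0.28 ± 0.18 (SE), and Lsr, which marks junctions where 3 cells meet, by 0.21 ± 0.17. When the Fz4+/+ sample of litter 2 was left out, Cgn differed by 0.19, Crb3 by 0.09 and Lsr by 0.06. Tjp3 differed by 0.25 or 0.67 with the Fz4+/+ sample of litter 1 or 3 left out.

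Of 23 tested genes of a list of regulators of epithelial junctions 21 lay above 0, against 63.5% of all tested genes. The list holds activators of junction genes as well as repressors, such as the Snail factors, so this count has no single direction. The median of the list was 0.12. With the Fz4+/+ sample of litter 2 left out 19 lay above 0, against 48.2% of all tested genes, and the list median was 0.07. Leaving out the Fz4+/+ sample of litter 3 gave a median of 0.22, and leaving out that of litter 1 gave 0.06, with 15 above 0. limma called 0, with 0 at an unadjusted p under 0.05. The transcription factor Hnf4a read 9.04, 9.28 and 9.01 in Fz4-/- samples, against 9.14, 7.10 and 8.42 in Fz4+/+ samples, a difference of 0.89 ± 0.50 (SE), with -0.10, 2.17 and 0.59 within litters. The epithelial factor Ehf read 0.39 ± 0.23, the nephron factor Pax8 0.21 ± 0.15 and the Grainyhead factor Grhl1 0.31 ± 0.25. Hnf4a and Pax8 are also on the early nephron list, and 6 genes of the regulator list are on another list as well. Once the Fz4+/+ sample of litter 2 was left out, Hnf4a differed by 0.33, Ehf by 0.23, Pax8 by 0.14 and Grhl1 by 0.04. Outside the epithelial set, 12 other claudin or claudin-domain genes were on the array and 3 were tested. The endothelial claudin Cldn5 differed by 0.25 ± 0.14 (SE), Cldn12 by 0.22 ± 0.25 and Cldnd1 by -0.01 ± 0.12, with limma's adjusted p of 0.999988 for each. For Cldn5 and Cldn12 the values were 0.14 and 0.02 when the Fz4+/+ sample of litter 2 was left out.

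Genes with the profile most like each claudin were sought by Pearson's r over the 6 arrays among all tested genes, as a description. Cldn1 was most like Erc1 (0.995), Fabp4 (0.991) and 1700094D03Rik (0.983). Fabp4, which encodes a fatty acid binding protein, read 10.995, 11.29 and 11.35 in Fz4-/- samples, against 10.70, 10.31 and 10.80 in Fz4+/+ samples, in the same order as Cldn1 apart from Fz4+/+ litters 1 and 3. Cldn3 was most like Prelid2 (0.998), Cldn6 like Ccdc127 (0.987), Cldn7 like Mief1 (0.988) and Cldn8 like D630004K10Rik (0.994). Cldn9 was most like Kif20b (0.993), a mitotic kinesin, Cldn10 like Tbxas1 (0.990) and Cldn11 like Mtmr6 (0.996). The third for Cldn11 was Bmp5 (0.989), a BMP ligand, at 7.23, 8.07 and 7.97 in Fz4-/- samples, against 7.29, 8.07 and 8.05 in Fz4+/+ samples, low in litter 1 of both genotypes. With 6 arrays in 3 litters and 12535 genes searched, such high values are met for every claudin tested.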

How the data were processed

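Whole-kidney RNA of 3 Fz4-/- and 3 Fz4+/+ samples was read on 6 arrays. The authors made the deposited log2 values with RMA, of a version not given in the sources used here, per the submitters' processing notes. These values were analysed without further normalisation. RMA evens out the arrays and compresses differences near background, and no detection calls were made. The number of arrays limits the precision. Names came from the platform annotation, which gave 1 gene to 34958 probe sets, of which 34754 matched RefSeq (GRCm38.p6) by Entrez number. Another 932 had several genes and 9211 none, and these were not named. Control probe sets (64) were left out.

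limma 3.58.1 under R 4.3.3 fitted genotype as the sole term (lmFit, eBayes) with two-sided p-values adjusted by Benjamini-Hochberg over all tested probe sets, at a threshold of 0.05. Single values were compared by two-sided exact permutation. The fit was tested on simulated data with independent noise in each probe set and array. That noise held no spread shared within litters or across an array, so it does not show how the fit behaves on these arrays. Replicate numbers in the labels are litter numbers and thus pair the samples, and deviations from the genotype means correlated by 0.577, 0.178 and 0.809 within litters 1 to 3, although those of Fz4-/- litter 1 and Fz4+/+ litter 2 correlated by 0.609. Alternatives were the litter as a block, other filters, quantile normalisation, another variance prior, array weights, other probe set choices and each sample left out. All 10 claudins were named, and of each other list up to 4 genes with the smallest unadjusted p. Likeness was ranked among the brightest tested probe sets, 3 genes for each claudin. The members and lists were chosen with earlier results of these data known.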

Additional observations from a re-analysis of the deposited data

How the results depend on the processing

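Of 198 claudin values recomputed under alternatives, 179 kept their direction, 19 changed sign and 0 passed the threshold. Many could not change sign, since the litter terms, other filters and other variance prior leave the difference itself as it was. The same holds for genes with a single probe set under other probe set choices. Cldn2 and Cldn4 had an adjusted p in only 1 alternative, and their differences were not weighted with array weights. Other probe set choices and subtraction gave no adjusted p. Cldn11 read -0.0184 after quantile normalisation, Cldn8 0.0555 with array weights and Cldn2 0.0300 with the mean of its probe sets. With the ureteric epithelium mean subtracted, Cldn7 read -0.126, Cldn11 -0.228 and the median of the 10 claudins -0.177. With Cdh1 and Epcam subtracted these were -0.0758, -0.178 and -0.127, by construction, since the subtracted means were higher in Fz4-/- samples. With 1 sample or 1 litter left out in turn, Cldn11 ran from -0.210 to 0.302, Cldn8 from -0.104 to 0.0840, Cldn2 from -0.373 to 0.0781 and the claudin median from -0.0114 to 0.188.

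limma called 0 probe sets in each setting but array weights, which called 2, both of Fzd4, and gave the Fz4-/- sample of litter 2 a weight of 8.81. At an unadjusted p under 0.05 the count of 239 became 841 with the litter as a replicate block, 940 with it as a random effect, 531 without a filter, 141 with the filter at the 60th percentile, 126 with another variance prior and 6084 with array weights. It ran from 81, with litter 2 left out, to 1725, with the Fz4+/+ sample of litter 3 left out. The litter block changed no claudin call. The causes were not tested. Subtraction, the random effect, the list and named gene values with a sample left out and leaving out whole litters were chosen after the data were seen. The median difference over all tested probe sets was 0.0334, and 0.0102 after quantile normalisation. Signal near background limits Cldn2, Cldn4 and Cldn10.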
